A study of Mus musculus with 4 samples.

Results

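The unfolded protein response and secretory pathway was followed as a set of 44 genes that encode the sensors, chaperones, disulfide isomerases, degradation factors, translocation machinery and vesicle coat of the endoplasmic reticulum (ER). The genes are the rows of the deposited tables whose symbol equals one on a list of names, and the rule itself uses no measured value. All 44 were found among the 22558 genes of the count table, and 44 of 44 were among the 11711 genes tested. Pulmonary group 2 innate lymphoid cells (ILC2s), lymphocytes without antigen receptors that secrete IL-5 and IL-13, of 2 WT libraries were set against those of 2 ICAM-1 KO libraries. ICAM-1 is an adhesion molecule, and the comparison asks how ILC2s differ in its absence. The WT mice were C57BL/6 with a wildtype genotype, and the ICAM-1 KO mice carry the label ICAM-1 KO on the same background strain. The study's methods name the KO line B6.129S4-Icam1tm1Jcgr/J, a germline allele, so the cells around the ILC2s carry it too. All mice were 6 weeks old and all received 3 intranasal challenges of 0.5 µg recombinant mouse IL-33, so no group was untreated. Lungs were taken on day 4, cells were sorted as CD45+ Lin- ST2+ CD127+, and each library was a pool of 4 mice. The p-values therefore measure the spread between 2 pools per genotype.

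Proteins that are to be secreted enter the ER through the Sec61 channel, lose their signal peptide to signal peptidase, and fold with the help of chaperones and disulfide isomerases. Folded cargo leaves in COPII vesicles, and KDEL receptors return escaped ER chaperones. When unfolded protein accumulates, the sensors IRE1, PERK and ATF6 start the unfolded protein response. IRE1 splices Xbp1 RNA into the form that encodes an active transcription factor, PERK slows translation and favours ATF4 and CHOP, and ATF6 is cleaved into a transcription factor. Together these factors raise chaperone, degradation and lipid genes. Lymphocytes that secrete much protein, plasma cells above all, depend on this machinery, and cytokine-producing innate cells use it as well.

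The libraries held 24796148 to 28782471 counts. Libraries of one genotype correlated at 0.966 (WT) and 0.969 (ICAM-1 KO) on the log2 scale across genes, and libraries of different genotypes at 0.930 to 0.938. The RNA of Icam1 itself did not fall with the KO label. The normalized count, the authors' upper quartile normalized value, was 85.2 and 83.3 in WT and 97.6 and 110.0 in ICAM-1 KO (log2 fold change 0.33, SE 0.108, adjusted p = 0.0745). Gene counts do not show which part of the gene was read, so the label was not checked by this value. The paper compared ICAM-1 protein on lung ILC2s of IL-33-challenged WT and KO mice by flow cytometry. It states that the KO mice lack ICAM-1. Whether those were the mice sequenced is not stated, and ICAM-1 KO stands here for the libraries labelled so. ILC2 markers were present in all 4 libraries, with Gata3 at 425 to 537, Il1rl1 (ST2) at 626 to 774 and Il7r (CD127) at 250 to 304 normalized counts. Of 12 ILC2 markers, 2 were higher and 4 lower in ICAM-1 KO at an adjusted p under 0.05 by edgeR. Over all genes tested the shares were 8.8% and 4.97%. Among the 4 lower markers were Id2 and Il5, the most abundant of the list. Most markers of B cells, endothelium, macrophages and alveolar type 2 cells were higher in ICAM-1 KO. Eosinophil markers went both ways and no mesenchymal marker passed. The values of these lists are given after the members.

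Every member that passed the test was higher in ICAM-1 KO. Of the 44 genes, 11 were higher in ICAM-1 KO at an adjusted p under 0.05 (25%) and 0 were lower. Over all genes tested the shares were 8.8% higher and 4.97% lower, and the list itself was not tested against them. The 11 were Eif2ak3, Xbp1, Ddit3, Ppp1r15a, Hspa5, Hsp90b1, Hyou1, Dnajb9, Creld2, Pdia4 and Herpud1. At an unadjusted p under 0.05, 19 members were higher and 1 lower, beside 17.1% and 13.1% of all genes. Both ICAM-1 KO libraries lay above both WT libraries for 21 members (28.3% of all genes) and below both for 5 (31.3% of all genes), and 18 members overlapped. The median log2 fold change was 0.16 over the members and 0.01 over all genes tested. Without WT replicate 1 or WT replicate 2 the count was 5 in each case, without either ICAM-1 KO library it was 9, and with no filter on low counts it was 3. Xbp1, Hyou1 and Herpud1 were called in all 4 fits that left out a library. Of the 11, Hyou1 alone also passed a change of 2-fold, which 4.94% of all genes did upward. The 44 genes together took 1.14% and 1.18% of all counts in WT and 1.36% and 1.33% in ICAM-1 KO.

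**Figure D1:**
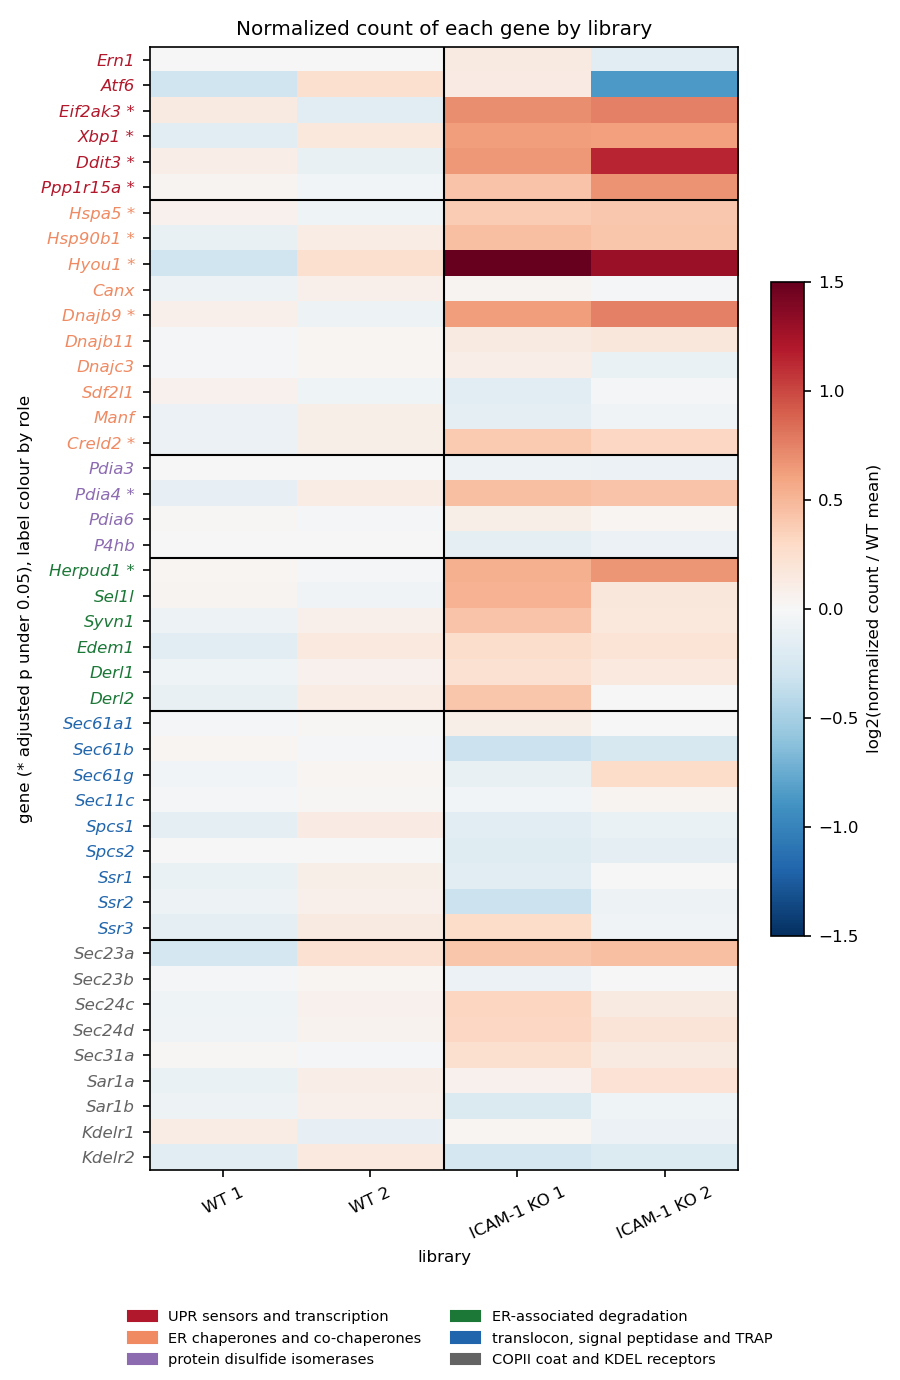
Normalized count of each of the 44 genes (rows, grouped and coloured by role) in the 2 WT and 2 ICAM-1 KO libraries (columns), as log2 of the value over the WT mean of that gene. Asterisks mark the 11 genes with an adjusted p under 0.05, which sit mostly among the UPR sensors and transcription genes and the chaperones. Hyou1 is the darkest row, and Atf6 is pale in ICAM-1 KO 1 and blue in ICAM-1 KO 2.

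By role, the called genes were mostly UPR sensors and transcription genes and ER chaperones. Of the sensor genes Ern1, Eif2ak3 and Atf6, only Eif2ak3 was called. Among the UPR sensors and transcription genes 4 of 6 were higher, among the ER chaperones and co-chaperones 5 of 10, among the protein disulfide isomerases 1 of 4 and among the ER-associated degradation genes 1 of 6. Over all genes tested 8.8% were called higher and 4.97% lower. None of the 9 translocon, signal peptidase and TRAP genes and none of the 9 COPII coat and KDEL receptor genes passed, by edgeR. In these 2 groups 4 genes were higher and 1 lower at an unadjusted p under 0.05, beside 17.1% and 13.1% of all genes tested. The median log2 fold changes of the 6 roles were 0.62, 0.28, 0.01, 0.29, -0.05 and 0.17 in the same order. Whether the roles differ from each other was not tested.

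Several members carry, in front of their start, the letters that ATF6 and XBP1 are known to bind, and these are shown because the genes with them include both called and uncalled chaperones. RefSeq promoter windows of 300 bases (250 before the start and 50 after it, build GRCm38.p6) were found for 36 of the 44 genes, and not for Atf6, Hyou1, Manf, Derl1, Sec61a1, Sec11c, Ssr2 and Kdelr2. On both strands, the ER stress response element (ERSE: CCAAT, 9 bases of any kind, CCACG) was in the windows of 7 of 36 members (19.4%) and of 37 of 27025 genes at large (0.137%). It was in 3 of the 10 called genes with a window (Hspa5, Hsp90b1, Creld2) and in 4 of 26 others (Canx, Dnajc3, Pdia6, Syvn1). The shorter ERSE-II (ATTGG, 1 base of any kind, CCACG) was in 2 of 36 members, Herpud1 and Dnajb11, and in 12 of 27025 genes (0.044%). The UPRE (TGACGTGG), whose final letters CGTGG are CCACG on the other strand so that it can overlap an ERSE, was in Sec23a and Sec24d and in 0 of the 10 called genes, and in 0.714% of all genes. The ATF4-type CARE (TGATGNAA) was in Herpud1 and Kdelr1 and in 4.51% of all genes. These are letter matches, described without a test, and not binding sites. The 4 called genes with an ERSE or ERSE-II follow with the 250 bases before the RefSeq start, 5′ to 3′ on the gene's strand. Capitals mark the fixed letters of the matches, the ERSE or ERSE-II and, in Herpud1, the CARE in front of it.
Hspa5 (chr2:34771840-34772089, plus strand): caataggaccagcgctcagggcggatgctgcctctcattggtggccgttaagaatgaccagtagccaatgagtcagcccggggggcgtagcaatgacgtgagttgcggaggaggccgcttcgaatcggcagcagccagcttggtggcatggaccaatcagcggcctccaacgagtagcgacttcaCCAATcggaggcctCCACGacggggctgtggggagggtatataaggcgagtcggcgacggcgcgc
Hsp90b1 (chr10:86705445-86705694, minus strand): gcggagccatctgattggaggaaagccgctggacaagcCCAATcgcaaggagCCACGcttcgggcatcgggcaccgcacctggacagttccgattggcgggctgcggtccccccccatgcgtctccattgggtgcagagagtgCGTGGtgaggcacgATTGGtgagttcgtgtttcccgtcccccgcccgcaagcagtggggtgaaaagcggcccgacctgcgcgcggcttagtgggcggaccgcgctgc
Creld2 (chr15:88819396-88819645, plus strand): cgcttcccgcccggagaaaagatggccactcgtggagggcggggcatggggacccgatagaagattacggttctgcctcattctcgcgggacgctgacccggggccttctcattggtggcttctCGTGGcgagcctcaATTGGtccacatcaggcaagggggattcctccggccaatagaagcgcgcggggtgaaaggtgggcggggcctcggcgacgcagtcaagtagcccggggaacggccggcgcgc
Herpud1 (chr8:94386179-94386428, plus strand): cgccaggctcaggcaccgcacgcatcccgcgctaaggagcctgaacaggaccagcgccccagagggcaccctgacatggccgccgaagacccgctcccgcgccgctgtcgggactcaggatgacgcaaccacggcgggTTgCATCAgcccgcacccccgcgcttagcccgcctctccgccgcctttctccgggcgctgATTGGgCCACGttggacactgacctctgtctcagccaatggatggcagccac
The Hspa5 match began at position -65 from the start, the 2 matches of Hsp90b1 at -212 and, on the other strand, at -107, that of Creld2 on the other strand at -126, and that of Herpud1 at -52. For Hspa5 and Hsp90b1 the gene start of the deposited tables lies upstream of the RefSeq start, and distances are from the latter. The uncalled genes with an ERSE before the start follow as 60 bases around the match, since they show the same letters in genes whose RNA did not pass the test.
Canx (chr11:50325780-50325839, minus strand): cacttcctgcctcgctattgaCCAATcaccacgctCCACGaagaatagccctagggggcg
Dnajc3 (chr14:118937806-118937865, plus strand): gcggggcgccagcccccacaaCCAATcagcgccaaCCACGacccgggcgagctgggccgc
Pdia6 (chr12:17266470-17266529, plus strand): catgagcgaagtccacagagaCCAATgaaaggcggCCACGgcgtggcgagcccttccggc
Syvn1 (chr19:6046511-6046570, plus strand): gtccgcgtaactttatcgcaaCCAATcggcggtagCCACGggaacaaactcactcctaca

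**Figure D2:**
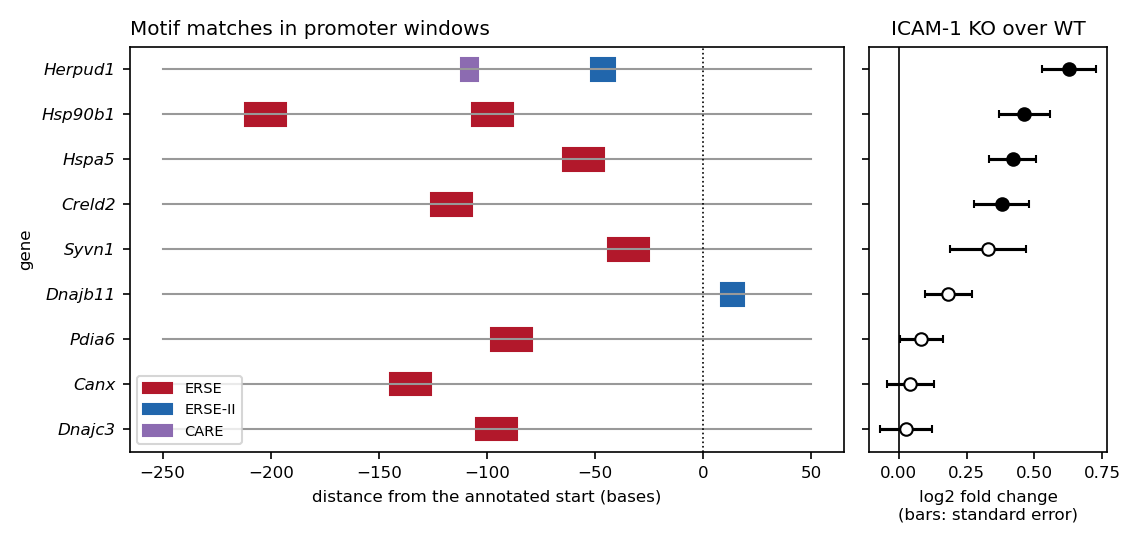
Left, motif matches in the 300-base windows of the 9 genes with an ERSE or ERSE-II, by distance from the RefSeq start in bases, with a box per match coloured by motif. Right, the log2 fold change of ICAM-1 KO over WT of the same genes with its standard error, filled where the adjusted p was under 0.05, which runs from 0.03 in Dnajc3 to 0.63 in Herpud1.

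The UPR sensors and transcription genes held the largest share of called genes. Xbp1, the substrate of IRE1 and the main transcription factor of the response in secretory cells, had normalized counts of 160.5 and 200.9 in WT and 278 and 277 in ICAM-1 KO. Both ICAM-1 KO libraries lay above both WT libraries, and the log2 fold change was 0.64 (SE 0.113, adjusted p = 0.00873). Gene counts do not tell spliced from unspliced Xbp1 RNA. Eif2ak3, which encodes PERK, had 27.7 and 22.6 in WT and 40.6 and 42.6 in ICAM-1 KO, without overlap (log2 fold change 0.76, SE 0.158, adjusted p = 0.0166). Ppp1r15a, which encodes GADD34, the phosphatase subunit that restores translation after PERK has acted, stood at 249.7 and 234 in WT and 326 and 387 in ICAM-1 KO (log2 fold change 0.59, SE 0.105, adjusted p = 0.0095). Ddit3, which encodes the stress transcription factor CHOP, was among the lowest members, at 8.45 and 7.335 in WT and 12.4 and 17.4 in ICAM-1 KO, from 231 to 544 counts per library. Its log2 fold change of 0.95 had the widest error of the called genes (SE 0.271, adjusted p = 0.0486). The other sensors did not pass. Ern1, which encodes IRE1, had 76.2 and 77.2 in WT and 84.0 and 68.8 in ICAM-1 KO, with the groups overlapping (log2 fold change 0.02, SE 0.12). Atf6 had 38.0 and 55.3 in WT and 50.75 and 25.6 in ICAM-1 KO (log2 fold change -0.27, SE 0.286, adjusted p = 0.567), and its 2 ICAM-1 KO libraries differed from each other more than the genotypes did. Without ICAM-1 KO replicate 1 Atf6 was called lower, at -0.83 (adjusted p = 0.0169), and without ICAM-1 KO replicate 2 its value was 0.14. Ddit3 lost its call without WT replicate 1, WT replicate 2 or ICAM-1 KO replicate 2 (adjusted p = 0.114, 0.169 and 0.265), and Eif2ak3 and Ppp1r15a lost theirs without WT replicate 2 (adjusted p = 0.0787 and 0.0641). Exons of Eif2ak3 share 485 bases with Gm43292, annotated on the other strand, and Ddit3 shares 105 bases with another entry of its own symbol and 68 with Mars on the other strand, so reads there can be split between genes.

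Of the chaperones, 5 of 10 were higher, beside 8.8% of all genes tested, and 3 of these 5 encode BiP or partners of it. Hspa5 encodes BiP, the Hsp70 chaperone of the ER lumen that also holds the sensors inactive, and had normalized counts of 1161 and 1058 in WT and 1442 and 1471 in ICAM-1 KO (log2 fold change 0.42, SE 0.0857, adjusted p = 0.0153). Hyou1, the large Hsp70 relative that exchanges nucleotide on BiP, showed the largest change of the 44 genes. It stood at 49.5 and 71.85 in WT and 175 and 149 in ICAM-1 KO, a mean of 60.7 ± 15.8 against 162 ± 18.3 (SD, n = 2 each), with a log2 fold change of 1.44 (SE 0.164, adjusted p = 0.0014). The lower ICAM-1 KO library was still above the higher WT library by 2-fold or more. Hyou1 lies on chromosome 9 from base 44379490 to 44392369 (mm10), 23.4 Mb from Icam1 on the same chromosome. Dnajb9, which encodes the BiP cochaperone ERdj4, had 16.6 and 14.9 in WT and 24.35 and 26.5 in ICAM-1 KO (log2 fold change 0.72, SE 0.184, adjusted p = 0.0348). Hsp90b1, which encodes the Hsp90 of the ER, GRP94, and folds integrins and Toll-like receptors, had 898 and 1046 in WT and 1327 and 1300.0 in ICAM-1 KO (log2 fold change 0.46, SE 0.0941, adjusted p = 0.0152). Creld2, an ER-stress-inducible EGF-domain protein, had 97.9 and 110.0 in WT and 137 and 129 in ICAM-1 KO (log2 fold change 0.38, SE 0.101, adjusted p = 0.0398). None of these 5 genes, grouped here because they were called, overlapped between the genotypes. Both ICAM-1 KO libraries lay above both WT libraries for 28.3% of all genes tested.

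The other 5 chaperone genes did not pass, although all are known as ER stress genes or as partners of BiP. Dnajb11 (ERdj3) had 175 and 183 in WT and 197 and 202 in ICAM-1 KO, above WT in both libraries but with an adjusted p of 0.195 (log2 fold change 0.18, SE 0.0868). Dnajc3 (p58IPK) had 177 and 184 in WT and 194 and 168 in ICAM-1 KO (log2 fold change 0.03, SE 0.0966). Canx, the lectin chaperone calnexin, stood at 545 and 606 in WT and 593 and 570 in ICAM-1 KO (log2 fold change 0.04, SE 0.0863). Sdf2l1, a BiP complex subunit, and Manf, a secreted ER stress factor, had log2 fold changes of -0.06 and -0.07 (SE 0.101 and 0.0969). Dnajc3 and Canx hold an ERSE before their start, as Hspa5, Hsp90b1 and Creld2 do, so the letters were found on both sides of the threshold. Dnajb9 and Creld2 lost their calls without any 1 of the 4 libraries (adjusted p = 0.0555 to 0.1355 and 0.0631 to 0.163), Hspa5 without WT replicate 1 or WT replicate 2 (adjusted p = 0.056 and 0.116) and Hsp90b1 without WT replicate 1 (adjusted p = 0.11). Hsp90b1 shares 415 exon bases with the pseudogene 1810014B01Rik on the other strand and 133 with the small RNA Gm25745.

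The protein disulfide isomerases split. Pdia4 (ERp72) was higher, with 272 and 319 in WT and 404 and 399 in ICAM-1 KO (log2 fold change 0.47, SE 0.0964, adjusted p = 0.0158). The 3 more abundant isomerases stayed within a narrow range. Pdia3 (ERp57), the partner of calnexin, stood at 1278 and 1284 in WT and 1219 and 1203 in ICAM-1 KO (log2 fold change -0.05, SE 0.0785), Pdia6 at 491 and 481 against 514 and 496 (0.08, SE 0.0789), and P4hb at 641 and 649.8 against 589 and 605 (-0.09, SE 0.0792). None of the 3 passed (adjusted p = 0.692, 0.522 and 0.507). Pdia4 lost its call without WT replicate 1 (adjusted p = 0.0865). Summed over the 4 genes the normalized count was 2682 and 2734 in WT and 2726 and 2703 in ICAM-1 KO.

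All 6 genes of ER-associated degradation, the pathway that returns misfolded protein to the cytosol for the proteasome, had positive log2 fold changes. The median over all genes tested was 0.01. Of the 6 genes, 5 had an unadjusted p under 0.05 by edgeR, beside 17.1% of all genes tested upward. Herpud1 alone passed the adjusted test. It encodes a scaffold of the degradation complex and is a known target of ATF4, ATF6 and XBP1, and had 99.3 and 94.75 in WT and 140 and 154 in ICAM-1 KO (log2 fold change 0.63, SE 0.1, adjusted p = 0.0061). Sel1l, the partner of the ubiquitin ligase Syvn1, had 94.2 and 88.2 in WT and 131 and 102 in ICAM-1 KO (log2 fold change 0.38, SE 0.126, adjusted p = 0.0776). Syvn1, which encodes the ligase HRD1, had 39.2 and 43.8 in WT and 55.95 and 46.4 in ICAM-1 KO (log2 fold change 0.33, SE 0.141, adjusted p = 0.154). Both ICAM-1 KO libraries were above WT for these 3 genes, as for 28.3% of all genes tested, with ICAM-1 KO 1 the higher for Sel1l and Syvn1. Edem1, which extracts glycoproteins from folding, and Derl1, a channel subunit, had log2 fold changes of 0.26 and 0.22 (adjusted p = 0.151 and 0.158). Derl2, its relative, overlapped between the groups, with 51.7 and 60.4 in WT and 74.9 and 55.7 in ICAM-1 KO (0.24, adjusted p = 0.331). Without ICAM-1 KO replicate 2, Sel1l was called higher as well (log2 fold change 0.54, adjusted p = 0.0136).

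**Figure D3:**
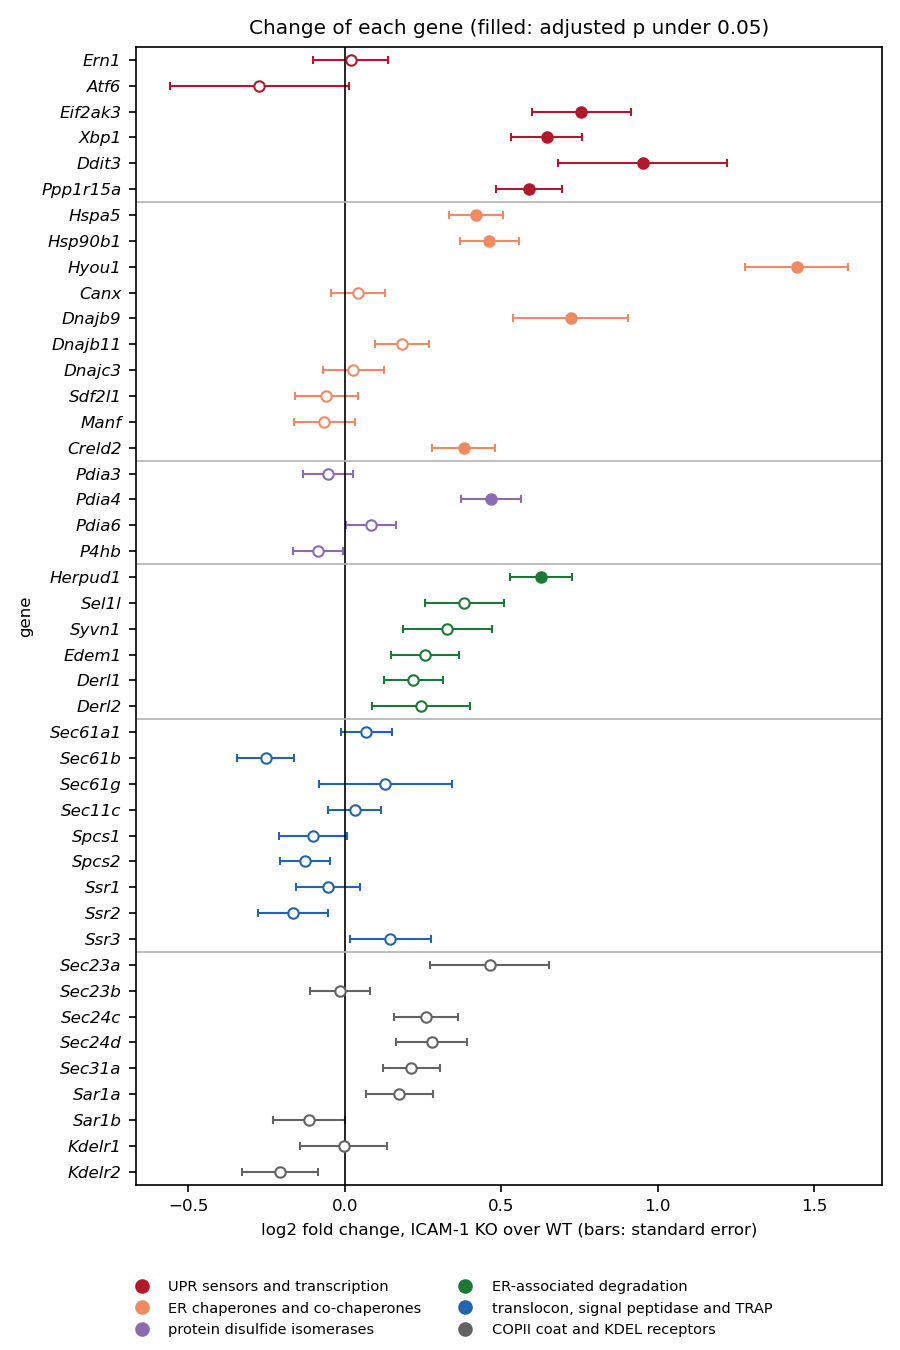
Log2 fold change of ICAM-1 KO over WT of each of the 44 genes, with the standard error of the fit as bars and colour by role. Filled points are the 11 genes with an adjusted p under 0.05, from 0.38 in Creld2 to 1.44 in Hyou1, and the translocon and COPII groups, with medians of -0.05 and 0.17, hold no filled point.

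No gene of the translocation machinery passed, where 8.8% of all genes tested were called higher and 4.97% lower. Of the 9 genes, 5 had negative log2 fold changes, where the median over all genes tested was 0.01. Sec61a1, Sec61b and Sec61g encode the channel. Sec61b had 194 and 187 in WT and 152 and 162 in ICAM-1 KO, the only member with an unadjusted p under 0.05 downward (log2 fold change -0.25, SE 0.0905, adjusted p = 0.0956). Sec61a1 had 344 and 352 in WT and 368 and 348 in ICAM-1 KO (0.07, SE 0.0812), and Sec61g, the lowest of the group, had 16.4 and 17.3 against 15.7 and 20.4 (0.13, SE 0.212). The subunits of one channel thus gave values on both sides of 0. Of the signal peptidase genes, Spcs2 had 541 and 549 in WT and 481 and 498.5 in ICAM-1 KO (-0.13, SE 0.0801, adjusted p = 0.319), with both ICAM-1 KO libraries below WT, while Sec11c, which encodes a catalytic subunit, and Spcs1 overlapped (0.03 and -0.10). The TRAP subunits Ssr1, Ssr2 and Ssr3, which assist the channel, had log2 fold changes of -0.05, -0.17 and 0.15 (SE 0.103, 0.112 and 0.13). Summed over the 9 genes the normalized count was 2129 and 2253 in WT and 2048 and 2102 in ICAM-1 KO. Exons of Spcs1 share 252 bases with Glt8d1, of Ssr2 239 with the pseudogene Gm10704 and of Sec61a1 549 with Gm44170, all annotated on the other strand.

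None of the COPII and KDEL receptor genes passed, where 8.8% of all genes tested were called higher and 4.97% lower. Of the 9 genes, 5 had positive log2 fold changes, where the median over all genes tested was 0.01. Sec23a, an inner coat subunit, had 19.9 and 27.9 in WT and 32.0 and 32.75 in ICAM-1 KO (log2 fold change 0.46, SE 0.19, adjusted p = 0.138). Its WT libraries differed from each other nearly as much as the group means, 23.9 ± 5.70 in WT and 32.4 ± 0.546 in ICAM-1 KO (SD, n = 2 each). The cargo-binding subunits Sec24c and Sec24d had log2 fold changes of 0.26 and 0.28 (SE 0.101 and 0.113, adjusted p = 0.122 and 0.137), and the outer coat subunit Sec31a had 0.21 (SE 0.0922, adjusted p = 0.158). Both ICAM-1 KO libraries were above WT for these 4 genes, as for 28.3% of all genes tested. Each had an unadjusted p under 0.05 by edgeR, beside 17.1% of all genes upward. Sec23b, the more abundant relative of Sec23a, had 125 and 130.5 in WT and 120 and 128 in ICAM-1 KO (-0.02, SE 0.0963). The GTPases that start coat assembly, Sar1a and Sar1b, had 0.17 and -0.12 (adjusted p = 0.306 and 0.552). Of the KDEL receptors, Kdelr2 had 93.1 and 115 in WT and 86.5 and 90.0 in ICAM-1 KO (-0.21, SE 0.121, adjusted p = 0.283) and Kdelr1 47.2 and 40.1 against 44.5 and 41.1 (-0.00, SE 0.139). The receptors that retrieve BiP and GRP94 thus did not pass where the RNA of both chaperones did, and the difference between them was not tested.

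Levels between genes were compared per length, as TPM, the share of all transcripts after division by length, computed from the counts and the annotated exon length. The disulfide isomerase Pdia3 led with a mean of 1222 TPM in WT, followed by Hspa5 (786), Hsp90b1 (721), P4hb (676), Sec61b (449) and Sdf2l1 (425). The lowest members were Atf6 (15.1), Sec23a (14.7), Ddit3 (13.8) and Eif2ak3 (12.5). The most abundant folding enzymes were thus far above the 3 membrane sensors, since Ern1 stood at 28.1. Xbp1 (166) and Ppp1r15a (247) were in the middle of the order. Neighbours in it could not be told apart where the libraries interleaved, such as Pdia6 (389) and Spcs2 (387). In ICAM-1 KO the means of Hspa5 and Hsp90b1 were 1075 and 1018 TPM, next to 1205 for Pdia3, and Hyou1 went from 25.1 to 70.2. With the longest transcript as the length, Pdia3, Hspa5 and Hsp90b1 kept the first places and Eif2ak3 the last.

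**Figure D4:**
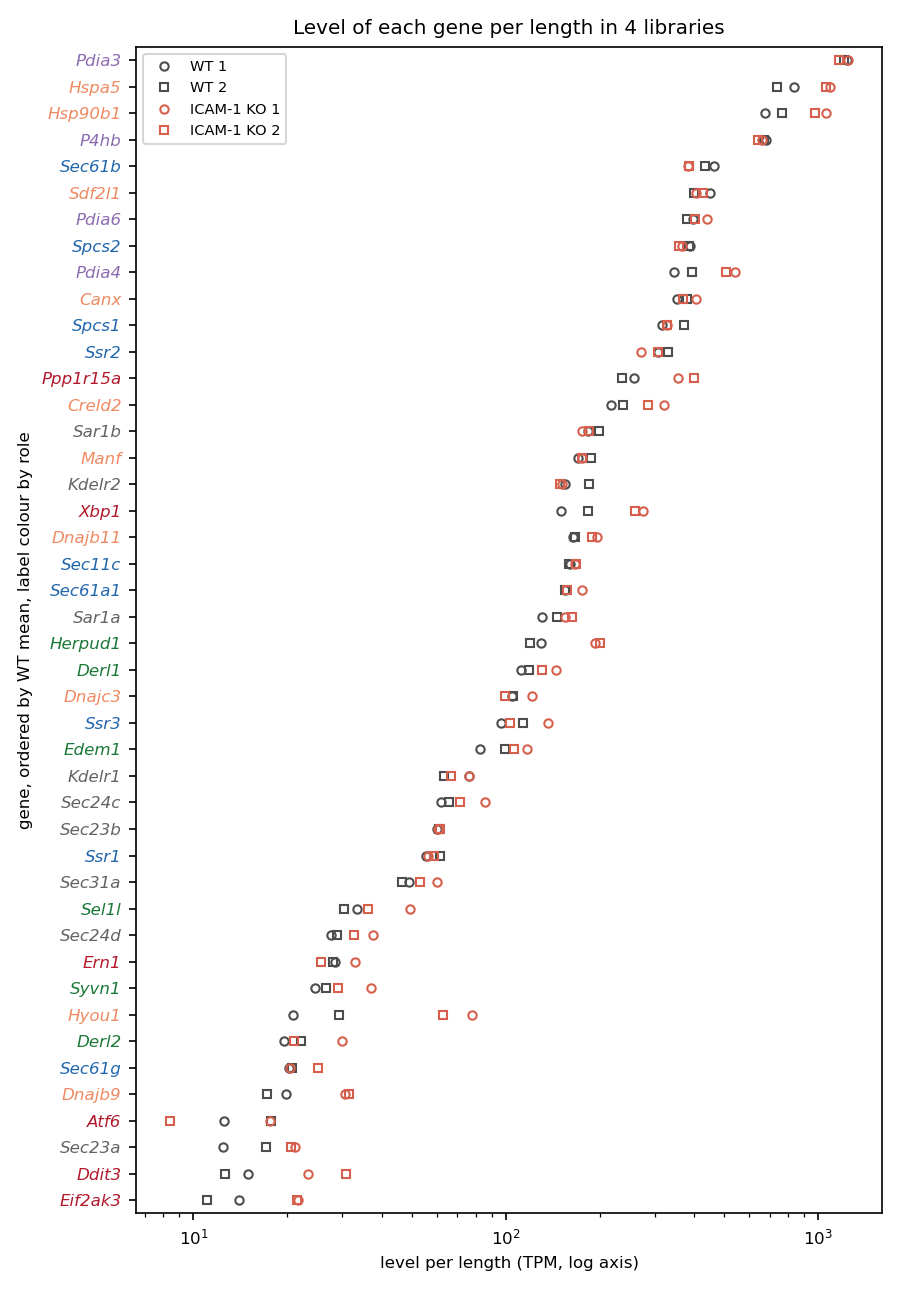
Level of each of the 44 genes per length in TPM (log axis), with a symbol per library, ordered by the WT mean from Pdia3 (1222) to Eif2ak3 (12.5) and labels coloured by role. The ICAM-1 KO symbols stand to the right of WT for Hspa5, Hsp90b1, Pdia4, Xbp1, Herpud1, Hyou1 and Eif2ak3.

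The other genes of the pathway were taken from a list of 91, of which 87 were tested. Of the 87, 5 were higher (5.75%) and 3 lower (3.45%), both under the shares of all genes tested, and the median log2 fold change was -0.01. Derl3, a degradation channel subunit, had 1.78 and 6.62 normalized counts in WT and 15.0 and 16.1 in ICAM-1 KO (log2 fold change 1.91, SE 0.42, adjusted p = 0.02). Fkbp11, a prolyl isomerase, had 3.5 and 6.30 against 11.9 and 15.6 (1.52, SE 0.33, adjusted p = 0.0191), and Txndc5, a disulfide isomerase relative, 145.5 and 194 against 262.5 and 261 (0.65, SE 0.129, adjusted p = 0.0138). All 3 are also expressed strongly in plasma cells, and the WT libraries differed most for Derl3. Crebrf, a regulator of CREB3, was higher by 0.94 (adjusted p = 0.026) and Copb1, a COPI coat subunit, by 0.33 (adjusted p = 0.0452). On the lower side Srp9, a subunit of the signal recognition particle, had 130 and 146 in WT and 62.4 and 70.0 in ICAM-1 KO (-1.03, SE 0.114, adjusted p = 0.00132), although its exons share 784 bases with the pseudogene Gm17968. Ero1l, the oxidase that recharges the disulfide isomerases, had 557 and 561 in WT and 425 and 382 in ICAM-1 KO (-0.44, SE 0.0846, adjusted p = 0.012). Krtcap2, a subunit of the oligosaccharyltransferase, was lower by -0.34 (adjusted p = 0.0451). Without WT replicate 1 none of the 5 higher genes passed, and without 1 of the other libraries 3 or 4 genes were called higher and 1 or 2 lower.

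By group, the called genes of the wider list are given beside 8.8% higher and 4.97% lower over all genes tested. Of 12 tested genes of the PERK-ATF4 arm and other UPR factors 1 was higher and 0 lower. Atf4 itself, the transcription factor whose translation PERK favours, had 148 and 158 in WT and 168 and 193 in ICAM-1 KO (log2 fold change 0.27, SE 0.104, adjusted p = 0.121). Of its known targets, Sesn2 had 0.87 (adjusted p = 0.0506) and Asns -0.41 (adjusted p = 0.105), and Atf5, Trib3 and Chac1 were under the filter. Of 15 further ER folding factors 2 were higher and 1 lower, and calreticulin (Calr), the soluble relative of calnexin, had -0.04 (SE 0.081). Of 15 further degradation genes 1 was higher and 0 lower. Of 24 genes for targeting, translocation and N-glycosylation 0 were higher and 2 lower, and both ICAM-1 KO libraries lay below WT for 13 of them and above for 2, beside 31.3% and 28.3% of all genes. Of 21 COPII, COPI and cargo receptor genes 1 was higher and 0 lower.

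**Figure D5:**
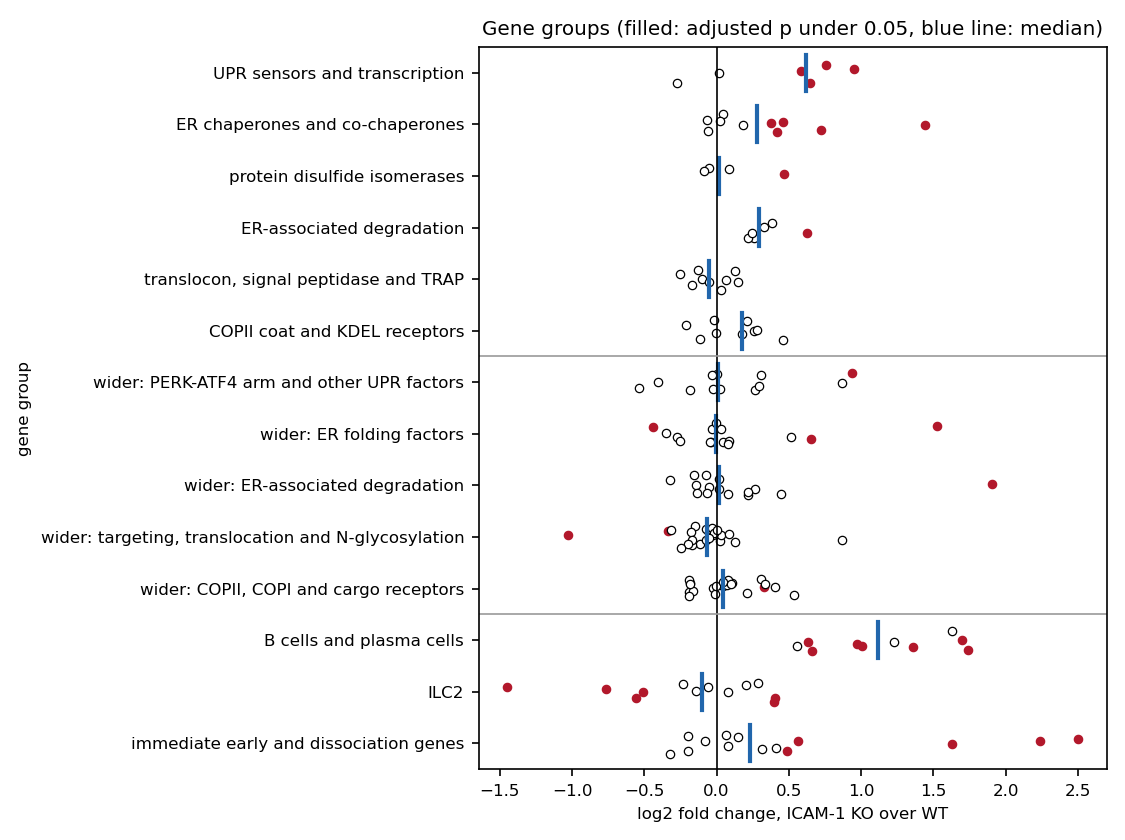
Log2 fold change of ICAM-1 KO over WT of every tested gene, one point per gene, by role of the 44 members (top), group of the wider pathway list (middle) and 3 lists of other genes (bottom). Filled points passed an adjusted p of 0.05 and blue lines are medians. These are 0.62 for the UPR sensors and transcription genes, 0.28 for the chaperones and 0.29 for the degradation members. Those of the wider groups lie between -0.06 and 0.05.

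Markers of several other cell types differed between the genotype labels. In a bulk library a change in the number of cells and a change in RNA per cell cannot be told apart. Calls are at an adjusted p under 0.05 by edgeR, which 8.8% of all genes tested passed upward and 4.97% downward. Of 10 tested markers of B cells and plasma cells 7 were higher, and their summed normalized count was 1617 and 4061 in WT and 6760 and 10270 in ICAM-1 KO, led by Ighm and Igkc. Endothelial markers were higher in 10 of 10 (238 to 254 in WT, 573 to 574 in ICAM-1 KO), macrophage and monocyte markers in 8 of 10 (765 to 978, 1961 to 2593) and alveolar type 2 markers in 7 of 8 (68.25 to 111, 495 to 937). Sftpb and Slc34a2, of the latter, were at 0 counts in WT replicate 2. T cell markers were higher in 4 of 8 (570.5 to 770, 986 to 1168), mesenchymal markers in 0 of 5 (15.4 to 55.8, 45.5 to 83.7), and of 5 eosinophil markers 2 were higher and 2 lower (98.1 to 112, 52.9 to 70.5), with Epx at 0 counts in both ICAM-1 KO libraries. The plasma cell genes differed within a genotype as well. Jchain, the joining chain of secreted antibodies, had 74.2 and 234 in WT and 266 and 442 in ICAM-1 KO, and Mzb1, a BiP-associated factor of plasma cells, 12.9 and 42.7 against 82.2 and 100.4.

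Genes of plasma cells and the called members were set side by side between single libraries. The ratio of WT replicate 2 over WT replicate 1 was 3.15 for Jchain, 3.31 for Mzb1, 2.22 for Ighm, 3.45 for Igkc, 3.71 for Derl3, 1.8 for Fkbp11 and 1.33 for Txndc5. For the 11 called members it lay between 0.815 (Eif2ak3) and 1.45 (Hyou1). Of the 11, 5 were higher and 6 lower in WT replicate 2. The ratio of ICAM-1 KO replicate 1 over WT replicate 2 was 1.14 for Jchain, 1.93 for Mzb1, 1.89 for Ighm, 1.43 for Igkc, 2.27 for Derl3, 1.89 for Fkbp11 and 1.35 for Txndc5. For the 11 members it lay between 1.24 (Creld2) and 2.44 (Hyou1), with Eif2ak3 next to Hyou1 at 1.8. Of these plasma cell genes Igkc and Txndc5 lay between Creld2 and Eif2ak3, Jchain lay below, and Mzb1, Ighm, Derl3 and Fkbp11 lay above Eif2ak3. ICAM-1 KO replicate 2 over ICAM-1 KO replicate 1 gave 1.66 for Jchain, 1.22 for Mzb1, 1.43 for Ighm and 1.74 for Igkc. It gave 1.07 for Derl3, 1.31 for Fkbp11, 0.995 for Txndc5, and 0.853 (Hyou1) to 1.4 (Ddit3) for the 11 members. Xbp1, Hsp90b1, Pdia4, Creld2 and Hyou1 were the called members with the higher value in WT replicate 2. Of the other cell types, only plasma cells were compared in this way. Summed endothelial markers were close within each genotype, at 254 and 238 in WT and 573 and 574.5 in ICAM-1 KO. Macrophage and monocyte markers summed to 765 and 978 against 1961 and 2593, and alveolar type 2 markers to 111 and 68.25 against 495 and 937. The part of other cells in the members' differences was not tested beyond these values.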

How the data were processed

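RNA of sorted lung ILC2s was sequenced from 2 WT and 2 ICAM-1 KO pools of 4 mice, grouped by genotype label, with 10 ng of RNA per library. The authors used a SMARTer low-input kit, aligned reads with STAR to mm10 with GENCODE annotation and quantified genes in Partek, and the submitters' processing notes also list CASAVA 1.8.2. The authors deposited estimated counts (expected counts, not normalized) for 22558 genes. They also deposited a normalized signal, upper quartile normalized counts, for 18324 genes, in which each value is the count plus 1 times 1 factor per library. Whether counting used strand is not given in the sources used here, so reads of genes that overlap on opposite strands cannot be told apart. In 21 rows the symbol has the form of a date, and these are not named.

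Counts, as whole numbers after rounding, entered the quasi-likelihood test of edgeR 4.0.16 (legacy set to FALSE, upper quartile factors, R 4.3.3) with genotype as the one term. The 11711 genes tested had normalized counts averaging 1 or more and summing to 10 or more, the thresholds that the study's methods state. The paper reports a larger number of detected transcripts, so the set tested here was not the study's. P-values were adjusted over all of them by the Benjamini-Hochberg method, calls were made under 0.05, and the standard error is the log2 fold change over the root of its F statistic. The test was tried on simulated data. TPM values used exon lengths of GENCODE M21, whose coordinates equal the deposited ones for 21873 genes. Promoter windows are RefSeq's. Alternatives were TMM factors, library size alone, DESeq2 1.42.0, limma 3.58.1 with a pseudocount of 1, other filters, edgeR's older form, a replicate block, and leaving out each library. Each library held between 24796148 and 28782471 counts, and the spread rests on 2 pools per genotype.

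The members and lists were chosen with earlier results of these data known. Named are all 44 members, Icam1, up to 5 called genes in each direction of the wider list with the largest changes, and up to 2 of the most abundant genes of a marker list. Other genes, among them Gata3, Il1rl1, Il7r, Jchain, Mzb1, Atf4, Sesn2, Asns, Atf5, Trib3, Chac1, Calr, Sftpb, Slc34a2, Epx, Btg2, Hspa1a and Hspa1b, were chosen after their values were seen.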

Additional observations from a re-analysis of the deposited data

How the results depend on the processing

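All 11 called members kept a positive log2 fold change in every fit run, and the median over the 44 members lay between 0.11 and 0.20. Of the 9 alternatives that kept all libraries, Hspa5, Hyou1 and Herpud1 were called in 9, Creld2 in 7 and Ddit3 in 3 (adjusted p = 0.0161 to 0.122), and the other called members in 8. With no filter on low counts 22158 genes were tested, 3 members were higher, the wider list had 0 higher, and all genes gave 334 higher and 201 lower. DESeq2 gave 930 genes lower in all and 5 of the wider list, and also called Sel1l (adjusted p = 0.0423). The older quasi-likelihood form gave 3 higher genes of the wider list. Leaving out 1 library gave 5 to 9 higher and 0 to 1 lower members, 0 to 4 higher and 1 to 2 lower genes of the wider list, and 479 to 948 higher and 158 to 388 lower genes in all. The summed level of the members in WT was 9349 TPM, and 8996 TPM with the longest transcript.

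The labels give the same replicate numbers 1 and 2 to both genotypes, but these come from different mice. Deviations of same-numbered libraries from their group means correlated at -0.058 over 11711 genes. The value rests on only the difference within each genotype, so it cannot show whether same-numbered libraries shared a preparation or run. With the replicate number as a block, 10 members were higher and 0 lower, 5 and 3 genes of the wider list, and 1077 and 638 of all genes.

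Signs that turned belonged to members not called in the reported fit, and the cause was not tested. Atf6, at -0.27 in that fit, varied most of them. With library size alone these were Sec23b (0.02) and Kdelr1 (0.0336), with no filter Ern1 (-0.0269), Canx (-0.0034), Dnajc3 (-0.0181) and Sec11c (-0.0149), with filterByExpr Ern1 (-0.0122), Dnajc3 (-0.0035) and Sec11c (-0.0004), and with limma Ern1 (-0.0133) and Dnajc3 (-0.002). Leaving out 1 library turned these uncalled members in at least 1 fit, with ranges of -0.12 to 0.15 for Ern1, -0.83 to 0.14 for Atf6, -0.0325 to 0.12 for Canx, -0.068 to 0.12 for Dnajc3, -0.15 to 0.0235 for Sdf2l1, -0.15 to 0.0261 for Manf, -0.0872 to 0.31 for Sec61g, -0.0213 to 0.0808 for Sec11c, -0.23 to 0.0381 for Spcs1, -0.14 to 0.0417 for Ssr1, -0.014 to 0.29 for Ssr3, -0.0772 to 0.0408 for Sec23b and -0.12 to 0.12 for Kdelr1.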

Other observations

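Among 14 immediate early and dissociation genes, 5 were higher and 0 lower in ICAM-1 KO, beside 8.8% and 4.97% of all genes tested. Their summed normalized count was 5225 and 4003 in WT and 4310 and 5082 in ICAM-1 KO. The cytosolic heat shock genes Hspa1a and Hspa1b, counterparts of Hspa5 outside the ER and nearly identical to each other so that reads can be split between them, stood out. Hspa1a had 3.90 and 3.34 in WT and 20.9 and 19.0 in ICAM-1 KO (log2 fold change 2.50, SE 0.264, adjusted p = 0.0011), and Hspa1b 8.40 and 6.41 against 34.1 and 34.05 (2.24, SE 0.207, adjusted p = 0.000634). Btg2, an antiproliferative early gene, had 93.0 and 111 against 308 and 311.5 (1.63, SE 0.105, adjusted p = 0.000131). Junb and Dusp1, the early genes with the most counts beside Nr4a1, had log2 fold changes of -0.20 and -0.08 (adjusted p = 0.314 and 0.785).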
